A study of Homo sapiens with 12 samples.

Results

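The snoRNA host genes are genes whose introns carry small nucleolar RNAs (snoRNAs), and they were followed here across glucose restriction and cariporide treatment of a breast cancer cell line. Members were taken by name: every symbol made of SNHG and a number, together with GAS5, ZFAS1, DANCR, EPB41L4A-AS1 and TAF1D, where the symbol was present in the count tables of all 12 libraries. This gave 34 genes among 40929 symbols. For SNHG27 and SNHG28 among them, RefSeq places no snoRNA inside the gene. Of these, 30 had enough reads to pass the filter on low counts, which 15104 genes passed in all, and only those 30 were tested.

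The cells were MDA-MB-231, an established triple-negative breast cancer line, labelled wild type and grown in RPMI medium with fetal bovine serum. They were kept for 48 h in medium with 10 mM glucose (the group NG), 10 mM glucose and 25 µM cariporide (CAR), 5 mM glucose (LG), or 5 mM glucose and 25 µM cariporide (LGCAR). Cariporide inhibits the plasma membrane sodium-proton exchanger NHE1. Each group had 3 libraries of total RNA, and all groups share this 1 cell line. The labels do not state separate cultures for the 3 libraries of a group, and the p-values therefore measure only the spread between these libraries, which may be technical.

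A snoRNA guides the chemical modification of ribosomal RNA or takes part in its processing: box C/D snoRNAs direct 2′-O-methylation and box H/ACA snoRNAs direct pseudouridylation, while the related scaRNAs act on spliceosomal RNAs in Cajal bodies. In vertebrates most snoRNAs are cut out of introns that have been spliced from a host transcript, so 1 transcription unit yields both the snoRNA and a spliced RNA. In many hosts the spliced RNA does not code for a stable protein, is loaded onto ribosomes and is removed by nonsense-mediated decay, the pathway that destroys transcripts with an early stop codon. Many hosts also begin with a 5′ terminal oligopyrimidine tract, a C followed by a run of pyrimidines, which they share with the mRNAs of ribosomal proteins and which couples translation to growth signals.

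The first bases of the hosts are shown because this tract is a sequence feature known from many of them. RefSeq windows around the annotated start (assembly GRCh38.p14) were at hand for 26 of the 30 tested members, in 27 windows. The annotated start of a window need not be the 5′ end of the gene interval. It was so in 24796 of 34992 windows compared, and in ZFAS1 and SNHG12 it lay inside the interval. Each run below has 35 bases, 5′ to 3′ on the strand of the gene, with the annotated first base at position 21, and capitals mark a C followed by at least 4 pyrimidines (C or T). In ZFAS1 (chr20:49278622-49278656, plus strand), SNHG32 (chr6:31834896-31834930, plus strand), SNHG12 (chr1:28581859-28581893, minus strand) and SNHG5 (chr6:85678719-85678753, minus strand) the tract began at the annotated start. In DANCR (chr4:52712374-52712408, plus strand), SNHG7 (chr9:136728170-136728204, minus strand) and SNHG8 (chr4:118278742-118278776, plus strand) it began within 5 bases of it. GAS5 (chr1:173869031-173869065, minus strand) and SNHG1 (chr11:62855871-62855905, minus strand) had none within 5 bases in the window given.
ZFAS1: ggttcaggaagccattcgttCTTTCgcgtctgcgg
SNHG32: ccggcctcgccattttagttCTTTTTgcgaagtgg
SNHG12: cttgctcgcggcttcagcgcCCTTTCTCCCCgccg
SNHG5: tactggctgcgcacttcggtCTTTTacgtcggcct
DANCR: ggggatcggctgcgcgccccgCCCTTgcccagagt
SNHG7: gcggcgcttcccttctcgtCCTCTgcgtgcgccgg
SNHG8: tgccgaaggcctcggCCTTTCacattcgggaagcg
GAS5: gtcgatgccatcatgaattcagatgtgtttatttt
SNHG1: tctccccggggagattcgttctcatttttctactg

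On the strand of the gene, the tract stood at the annotated start in 8 of 27 windows of tested members, or 29.6%. Those 8 genes were SNHG4, SNHG5, SNHG12, SNHG18, SNHG19, SNHG32, TAF1D and ZFAS1. For SNHG12 and ZFAS1 this start was not the outer end of the gene interval. Of all 35116 windows in the table, 4.07% held it at that place. Of the windows of ribosomal protein genes, 56.5% held it, and so did 12 of 15 windows of translation factor genes known for such starts. Within 5 bases of the start on either side, 48.1% of the windows of tested members and 21.1% of all windows held it. A match is a description of the letters, annotated starts can differ from the start used in these cells, and a window without a match tells nothing about the transcript.

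The tables gave between 18069004 and 24837409 counts per library, and the 34 members took between 21372 and 36944 of them. TXNIP, whose transcription follows glucose, stood at 264 ± 12.5 CPM (counts scaled to library size; SD, n = 3) in NG and 253 ± 9.33 in CAR. It stood at 46.4 ± 5.07 CPM in LG and 86.2 ± 7.55 CPM in LGCAR, so both groups labelled 5 mM lay below both labelled 10 mM. All 8 mesenchymal and all 7 epithelial markers had a mean of 1 CPM or more over the 12 libraries, the measure used for the markers that follow. Of 5 luminal receptor genes ERBB2 and GATA3 were above that, ESR1 and FOXA1 below it, and PGR was at 0 counts. Of 7 blood cell markers 2 were at 1 CPM or more, CD68 at 56.7 to 69.1 CPM and CD14 at 2.16 to 2.61 CPM by group mean, while CD3E and HBB were at 0 counts, and the list summed to 55.9 to 75.6 CPM per library. In LGCAR against NG the keratins KRT18 and KRT19 were called lower (log2 change -0.28 and -0.21), and CDH1 and PDGFRB higher (0.79 and 0.35); their part in the results below was not tested. The share of counts on ribosomal RNA genes ran from 7.10% to 11.5%. By group, NG had 9.48 ± 1.67% and CAR 7.87 ± 0.723%, and LG had 8.65 ± 0.649% and LGCAR 10.2 ± 1.12% (SD, n = 3).

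Levels below are CPM with TMM scaling, a level of 1 gene across libraries and not corrected for gene length. Of the tested members 18 had a mean of at least 10 CPM over the 12 libraries, and the other 12 lay under it. The 4 members that did not pass the filter were near the floor of the libraries. SNHG14, the long host of the imprinted SNORD115 and SNORD116 clusters, and SNHG22 had 0 counts in all 12 libraries, which allows up to 0.118 to 0.168 CPM by counting error alone, depending on the library. SNHG27 had 0 to 3 counts per library and SNHG31 had 1 to 9.

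Summed over the 34 members, the hosts stood highest in NG and lowest in LGCAR. The sums were 1359, 1382 and 1499.8 CPM in the libraries NG 1 to 3. They were 1450.0, 1286 and 1304 CPM in CAR 1 to 3, and 1266, 1265 and 1381 CPM in LG 1 to 3. In LGCAR 1 to 3 they were 1202, 1200.1 and 1172 CPM. Each LGCAR library lay below each library of the other 3 groups, while NG, CAR and LG overlapped. NG had the highest group mean for 19 of the 30 tested members, and LGCAR had the lowest for 23.

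**Figure D1:**
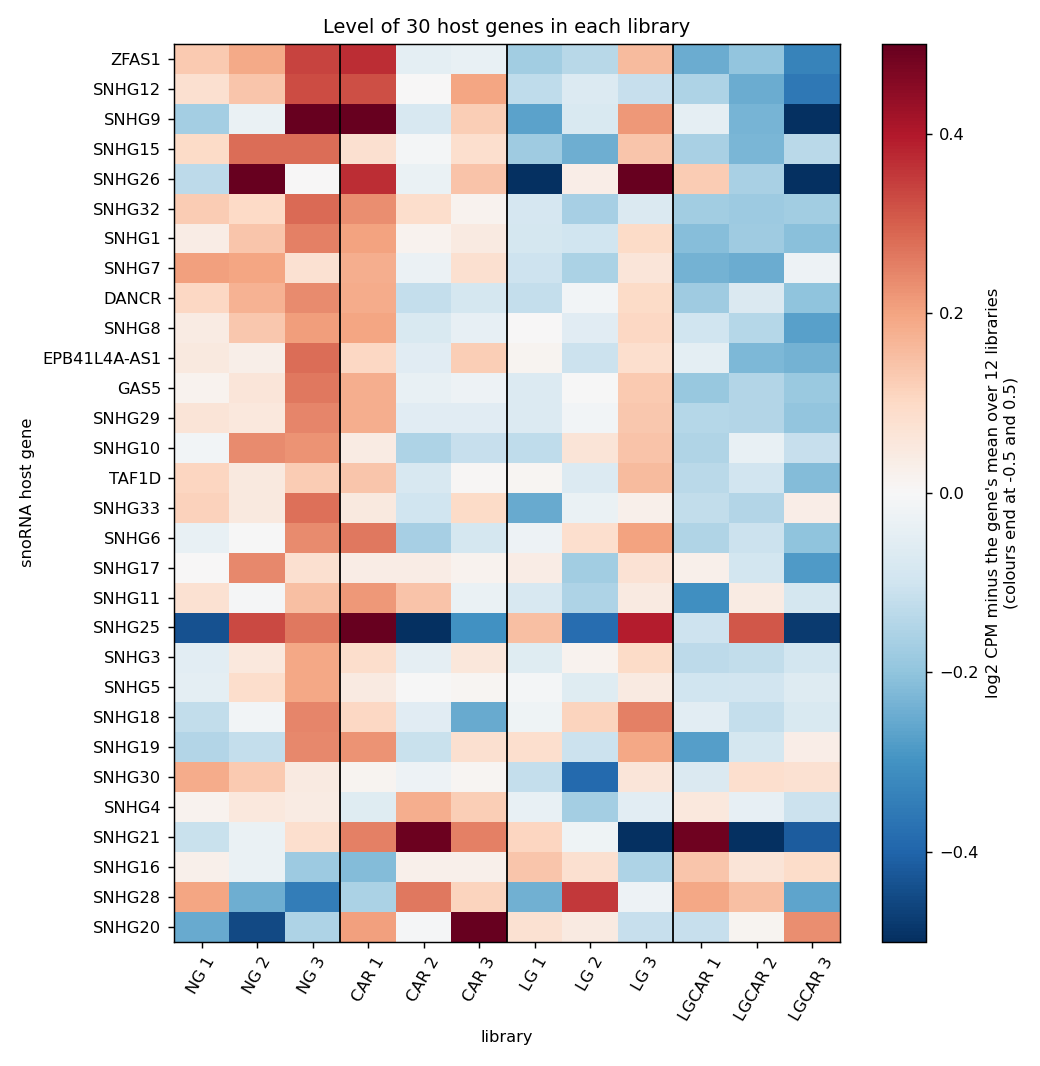
Heat map of the 30 tested snoRNA host genes (rows) in the 12 libraries (columns), coloured by log2 CPM minus the mean of the gene over all libraries. Most rows are above their mean in NG 3 and CAR 1 and below it in the 3 LGCAR libraries.

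With both low glucose and cariporide, 11 tested host genes were lower than in NG past the threshold. In LGCAR against NG 11 of the 30 tested members were lower at an adjusted p under 0.05 (edgeR quasi-likelihood test, Benjamini-Hochberg over 15104 genes), or 36.7%, where 4.12% of all tested genes were called lower. They were SNHG32, SNHG1, SNHG12, SNHG15, SNHG7, SNHG29, DANCR, GAS5, SNHG8, ZFAS1 and TAF1D. No member was called higher, where 4.63% of all genes were, and DESeq2 called none higher either. At an unadjusted p under 0.05, 18 members were lower and 0 higher, beside 13.2% and 15.8% of all genes. The median log2 fold change of the tested members was -0.24, beside 0.01 over all tested genes, and 27 of 30 were below 0, which held for 48.3% of all genes. The changes were small: the called members fell by 0.24 to 0.48 on the log2 scale.

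SNHG32, a non-coding gene of the major histocompatibility complex region that holds the box C/D snoRNAs SNORD48 and SNORD52 (chr6:31834916-31839761), had the smallest adjusted p among the hosts. Its level was 129, 127 and 144 CPM in NG 1 to 3, 139, 126 and 120.2 CPM in CAR 1 to 3, and 112, 106 and 113 CPM in LG 1 to 3. The 3 LGCAR libraries all stood at 105 CPM. LG and LGCAR lay below all NG and CAR libraries, and LGCAR lay below LG by less than the LG libraries spanned. The log2 change in LGCAR against NG was -0.35 (SE 0.061, adjusted p = 0.0053). In this comparison SNHG32 was the 1 member called whichever library of NG or LGCAR was left out, with adjusted p from 0.00993 to 0.0411. Of its exon bases 23.2% overlap another annotated gene on the same strand.

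SNHG1, the host of 8 box C/D snoRNAs (chr11:62851978-62855885), stood at 60.3, 64.8 and 70.002 CPM in NG 1 to 3. It was at 67.7, 59.5 and 60.8 CPM in CAR, at 55.4, 54.9 and 62.8 CPM in LG, and at 50.7, 51.9 and 51.0 CPM in LGCAR, each in library order. The LGCAR libraries lay below all others. LGCAR differed from NG by a log2 change of -0.35 (SE 0.0694, adjusted p = 0.0103). Without NG 3 or without LGCAR 1 this call was lost, with adjusted p of up to 0.0685.

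SNHG12 (chr1:28578538-28582983), which holds 3 box H/ACA snoRNAs and 1 box C/D snoRNA, was at 16.7, 17.4 and 19.8 CPM in NG 1 to 3. Its level was 19.7, 15.8 and 18.1 CPM in CAR, 14.4, 15.1 and 14.6 CPM in LG, and 14.1, 13.3 and 12.3 CPM in LGCAR. Both low-glucose groups lay below every library at 10 mM glucose. Against NG the log2 change in LGCAR was -0.44 (SE 0.0928, adjusted p = 0.013), and the call was lost without NG 3 or without LGCAR 3, with adjusted p of up to 0.0822.

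ZFAS1, which begins next to the start of ZNFX1 on the opposite strand and holds the 3 snoRNAs of the SNORD12 family (chr20:49278178-49289260), had the most negative log2 fold change of the called members. It stood at 99.6, 104 and 115 CPM in NG 1 to 3, at 118, 88.0 and 88.6 CPM in CAR 1 to 3, and at 80.7, 82.8 and 102 CPM in LG 1 to 3. In LGCAR 1 to 3 it was at 76.6, 79.3 and 72.3 CPM. The LGCAR libraries lay below all others, whereas CAR 1 and LG 3 stood well above the other libraries of their groups. The log2 change in LGCAR against NG was -0.48 (SE 0.118, adjusted p = 0.0318), and the level fell by 28.3%. Its exons overlap those of other genes, over 26.1% of their bases on the opposite strand and 16.9% on the same strand. The sources used here do not give whether the counting used the strand, and without it reads of a host and its antisense partner cannot be told apart. Among tested members 10 shared at least 10% of their exon bases with a gene on the opposite strand, EPB41L4A-AS1 (49.6%), SNHG21 (34.1%), SNHG16 (30.6%), SNHG6 (29.3%), SNHG28 (29.02%), SNHG7 (25.2%), SNHG10 (20.1%), SNHG29 (12.02%) and DANCR (11.9%) besides ZFAS1. On the same strand SNHG21 (72.9%), SNHG28 (40.4%) and SNHG4 (14.01%) did so besides SNHG32 and ZFAS1.

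GAS5, the growth arrest-specific RNA that is a known target of nonsense-mediated decay, holds 10 box C/D snoRNAs and 1 box H/ACA snoRNA (chr1:173863901-173869045). Its level was 87.0, 89.8 and 103 CPM in NG 1 to 3, and 97.5, 83.8 and 84.6 CPM in CAR 1 to 3. It was 82.0, 85.9 and 94.3 CPM in LG 1 to 3, and 75.5, 77.8 and 75.6 CPM in LGCAR 1 to 3. Again the LGCAR libraries lay below all others, and NG, CAR and LG overlapped. The log2 change in LGCAR against NG was -0.29 (SE 0.074, adjusted p = 0.0275).

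DANCR, named for its part in holding back the differentiation of progenitor cells, carries the H/ACA snoRNA SNORA26 (chr4:52712394-52720697). It stood at 32.5, 34.1 and 35.6 CPM in NG 1 to 3, at 34.4, 27.8 and 28.4 CPM in CAR, at 27.8, 29.9 and 32.3 CPM in LG, and at 26.7, 28.7 and 26.3 CPM in LGCAR. Each low-glucose library lay below each NG library, but the LG and LGCAR libraries overlapped. Its log2 change in LGCAR against NG was -0.33 (SE 0.0821, adjusted p = 0.0269).

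TAF1D is the protein-coding member, a subunit of the SL1 factor that recruits RNA polymerase I to ribosomal DNA, and it holds 6 box H/ACA and 2 box C/D snoRNAs (chr11:93730194-93741495). Its level was 128, 123 and 129.5 CPM in NG 1 to 3, 131, 112 and 119 CPM in CAR 1 to 3, and 119.6, 113 and 133 CPM in LG 1 to 3. In LGCAR 1 to 3 it was 108, 111 and 102 CPM, below each library of the other groups. The log2 change of -0.24 in LGCAR against NG (SE 0.0649, adjusted p = 0.0332) was the smallest among the called members.

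SNHG29 was the most abundant member by CPM, with 340.4, 338 and 386 CPM in NG 1 to 3 and 295, 294 and 284 CPM in LGCAR 1 to 3. It was at 369.8, 313 and 313 CPM in CAR and 310.5, 323 and 358 CPM in LG, so that only LGCAR stood apart from NG, and the log2 change was -0.29 (SE 0.0718, adjusted p = 0.0267). SNHG8, the host of SNORA24, was at 36.5, 39.0 and 41.0 CPM in NG, 40.7, 33.7 and 34.5 CPM in CAR, 35.6, 34.1 and 38.2 CPM in LG, and 33.1, 32.2 and 29.4 CPM in LGCAR. Its LGCAR libraries too lay below all others, with a log2 change of -0.30 against NG (SE 0.0777, adjusted p = 0.0299).

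SNHG15 is the host of SNORA9, and SNHG7 is the host of SNORA17A and SNORA17B. Like DANCR, they differed from SNHG29 and SNHG8 in how LG and LGCAR lay to each other. SNHG15 was at 16.6, 18.9 and 18.9 CPM in NG, 16.4, 15.4 and 16.5 CPM in CAR, 13.7, 13.1 and 17.1 CPM in LG, and 13.9, 13.3 and 14.1 CPM in LGCAR. SNHG7 was at 33.1, 33.0 and 30.3 CPM in NG, 32.6, 28.2 and 30.4 CPM in CAR, 26.8, 25.8 and 30.05 CPM in LG, and 24.4, 24.2 and 28.2 CPM in LGCAR. For both genes the LG and LGCAR libraries overlapped, and all LGCAR libraries lay below all NG libraries. The log2 change in LGCAR against NG was -0.40 for SNHG15 (SE 0.0936, adjusted p = 0.0212) and -0.33 for SNHG7 (SE 0.0794, adjusted p = 0.0231).

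**Figure D2:**
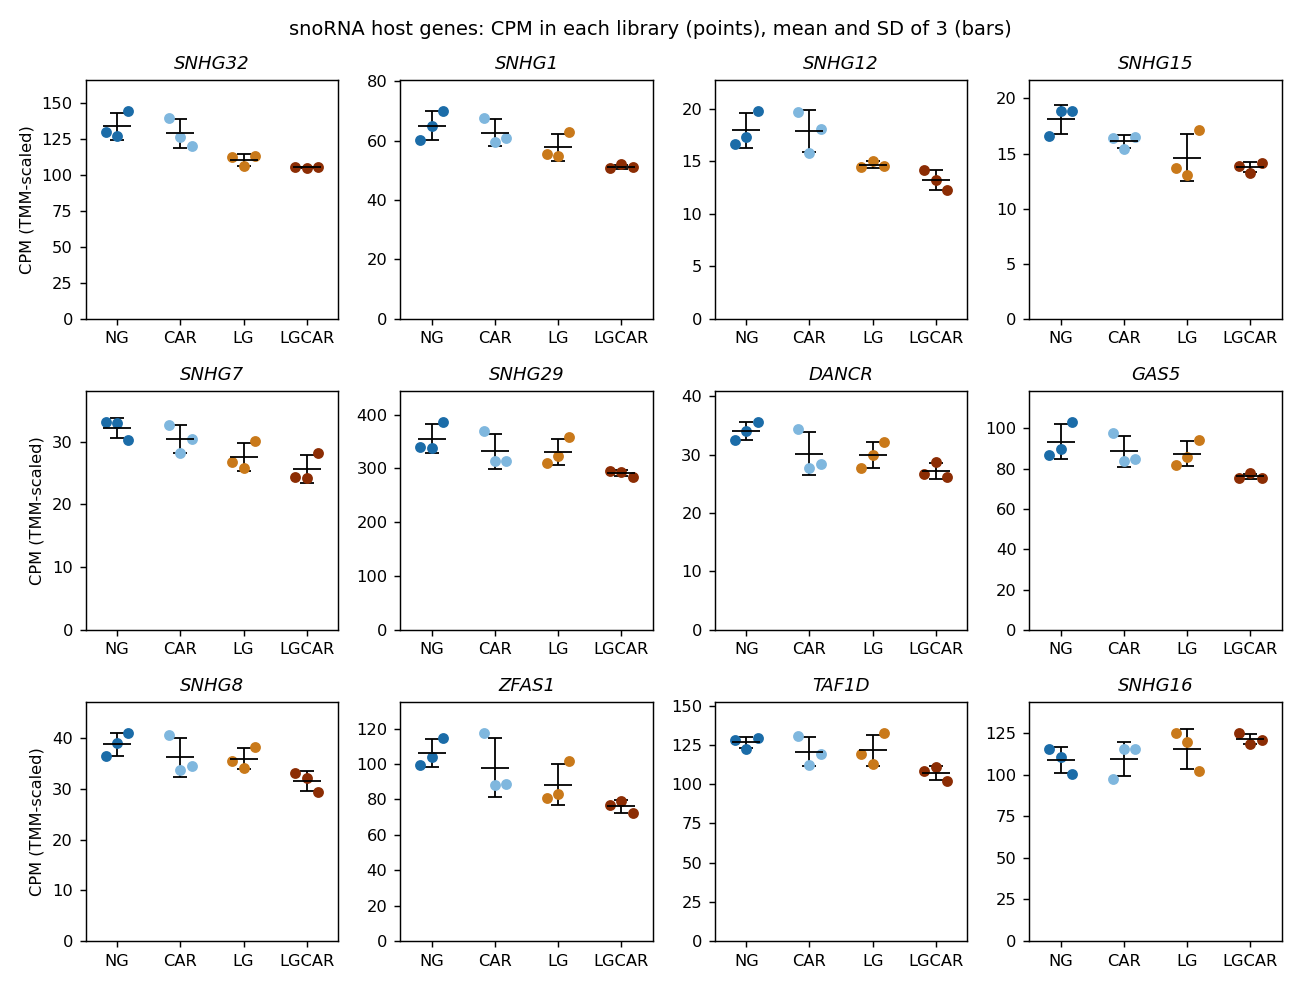
CPM of the 11 called members and SNHG16 in each of the 12 libraries, by group, with the mean and SD (n = 3). In the 11 called members the LGCAR points lie below all NG points, and in SNHG16 they lie above them.

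EPB41L4A-AS1, which overlaps EPB41L4A on the opposite strand and holds SNORA13, had an adjusted p above the threshold in the main fit. It was at 12.3, 12.1 and 14.5 CPM in NG, 12.8, 11.4 and 13.0 CPM in CAR, 12.007, 11.05 and 12.6 CPM in LG, and 11.5, 10.2 and 10.1 CPM in LGCAR. LGCAR differed from NG by a log2 change of -0.29 (SE 0.0954, adjusted p = 0.0618), although the LGCAR libraries lay below all NG libraries. SNHG3, with means of 62.6 ± 5.36 CPM in NG and 55.1 ± 0.819 CPM in LGCAR (SD, n = 3), and SNHG5, with 99.5 ± 8.30 and 88.7 ± 1.25 CPM, did not overlap either and had log2 changes of -0.18 and -0.17, with adjusted p of 0.0771 and 0.0723. In all, the LGCAR libraries lay below all NG libraries for 17 of 30 members, where 17.5% of all tested genes did so.

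SNHG16, singled out after its values were seen, was at 115, 111 and 100.1 CPM in NG, 97.6, 115 and 115 CPM in CAR, 125, 119.8 and 102 CPM in LG, and 125, 118 and 121 CPM in LGCAR. All its LGCAR libraries lay above all NG libraries, as they did for SNHG20, where 20.7% of all tested genes did so. Its log2 change in LGCAR against NG was 0.16, with a 95% interval from -0.01 to 0.33 and an adjusted p of 0.198. A fit of the NG and LGCAR libraries alone called SNHG16 higher, among 3497 genes called in all, beside 1322 in the main fit. That fit called 16 members. Besides SNHG16 and the 11 named above, EPB41L4A-AS1, SNHG3, SNHG5 and SNHG6 were called, all lower. SNHG4, at 21.4 ± 0.287 CPM in NG and 20.4 ± 1.16 CPM in LGCAR, and SNHG30, at 4.62 ± 0.230 and 4.33 ± 0.261 CPM (SD, n = 3), had log2 changes of -0.07 and -0.09.

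The called members were among the more abundant ones. All 11 were among the 18 with at least 10 CPM, whose median log2 change in LGCAR against NG was -0.29 with a median SE of 0.0785. The 12 members under 10 CPM had a median of -0.16 with a median SE of 0.166. The SE differed among them. SNHG33, SNHG10 and SNHG18 had log2 changes of -0.23, -0.26 and -0.13 with SE of 0.105, 0.121 and 0.122, beside 0.118 for the called ZFAS1. Why no member under 10 CPM was called was not tested. By the snoRNAs they hold in RefSeq, 4 of 12 members with box C/D snoRNAs only, 4 of 11 with box H/ACA snoRNAs only and all 3 with both kinds (GAS5, SNHG12 and TAF1D) were called lower, with medians of -0.21, -0.29 and -0.29. The 3 members with a scaRNA, SNHG10, SNHG20 and SNHG21, had a median of -0.05. SNHG28, the tested member with no snoRNA inside, had a log2 change of 0.17 and was not called. By the start windows, 4 of 8 members with the tract at the start, 3 of 5 with it within 5 bases and 3 of 13 without it were called lower, with medians of -0.20, -0.30 and -0.23. Differences between these classes were not tested.

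**Figure D3:**
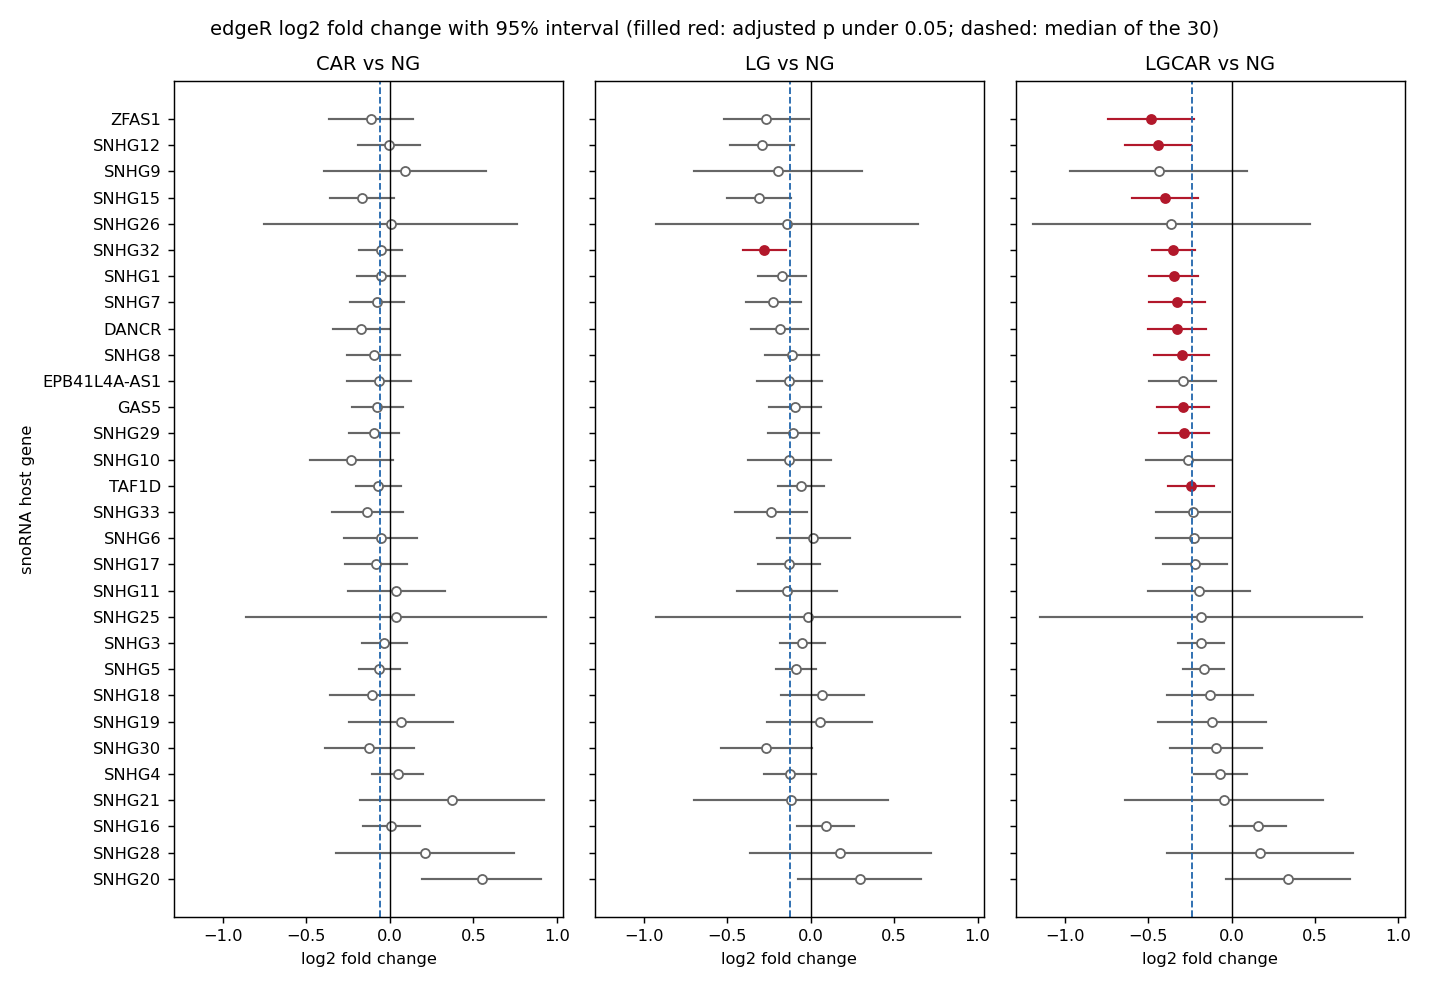
Log2 fold change of each tested member in CAR, LG and LGCAR against NG, with its 95% interval; filled red points mark calls at an adjusted p under 0.05 and the dashed line marks the median of the members. The medians are -0.06, -0.13 and -0.24.

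How many members were called rested on single libraries. With 1 library of NG or LGCAR left out, between 1 and 13 members were called in LGCAR against NG, fewest without NG 3. ZFAS1, GAS5, DANCR, TAF1D, SNHG29, SNHG8 and SNHG15 each lost the call in 5 of these 6 fits, all but that without NG 1, and SNHG7 lost it in 4. Without a filter on low counts ZFAS1 was not called. Over all genes the count moved alike, from 1322 to between 134 and 1578. Leaving out NG 1 gave 13 and leaving out NG 2 gave 3. Of the LGCAR libraries, leaving out the first gave 2, and leaving out the second or the third gave 3. The median log2 change of the tested members was less affected, at -0.30 to -0.19.

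The level of the hosts also moved with the ribosomal RNA share within groups. In each of the 4 groups the library with the lowest share had the highest summed level of the 34 members: NG 3 (7.83%), CAR 1 (7.10%), LG 3 (7.91%) and LGCAR 1 (9.32%). NG 3 was the highest NG library for 21 of the 30 tested members, CAR 1 for 22 and LG 3 for 24 in their groups. LGCAR 1 was the highest LGCAR library for 12 and the lowest for 9, with a sum of 1202 CPM beside 1200.1 CPM in LGCAR 2. Single libraries of NG and LGCAR with like shares are given as a description. NG 1, at 11.2%, had a summed level of 1359 CPM, and LGCAR 3, at 11.5%, had 1172 CPM. NG 2, at 9.45%, had 1382 CPM, and LGCAR 1, at 9.32%, had 1202 CPM. With the share as a covariate the same 11 members were called in LGCAR against NG. With the lowest-share library of each group left out, an alternative chosen after the data were seen, 12 were called, these 11 and SNHG17. Over all genes the counts were 1086 with the covariate and 2001 without those libraries, beside 1322. In LGCAR against CAR, described below, the covariate left no member called, and 18 genes called in all, beside 249 without it. The part of the ribosomal RNA share in the levels of the hosts was not tested.

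**Figure D4:**
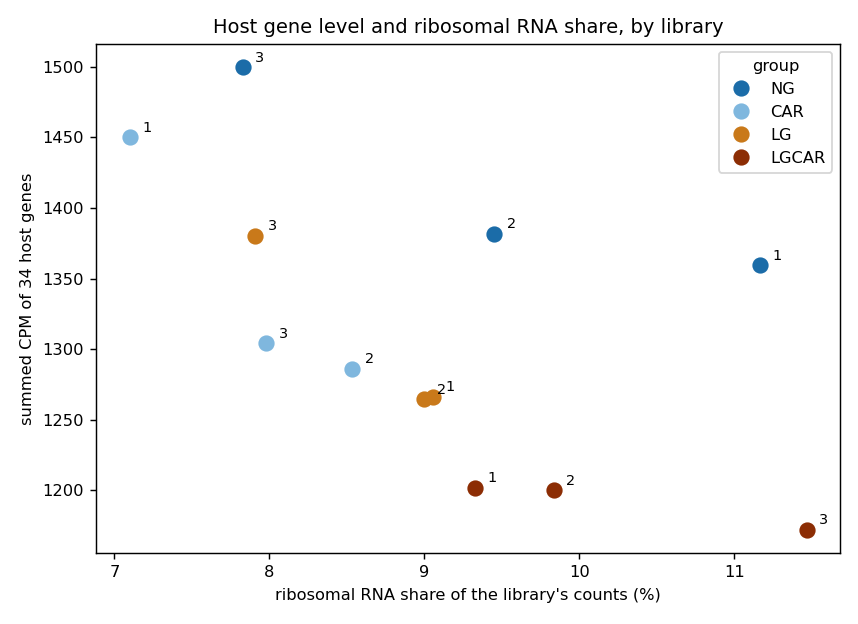
Summed CPM of the 34 snoRNA host genes (vertical axis) against the percentage of counts on ribosomal RNA genes (horizontal axis), 1 point per library, coloured by group. Within each group the library with the lowest share is the highest, and the 3 LGCAR libraries lie at 1172 to 1202 CPM, below the other 9.

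At low glucose alone, 1 member was lower past the threshold. In LG against NG SNHG32 was called lower, 1 of 30 tested members, beside 0.728% of all tested genes. Its log2 change was -0.28 (edgeR, SE 0.0606, adjusted p = 0.0278). Leaving out NG 2 or NG 3 ended the call, as did leaving out LG 1 or LG 2, and without LG 3 SNHG15 was called besides. At an unadjusted p under 0.05, 8 members were lower, where 7.07% of all genes were: SNHG32, ZFAS1, SNHG15, DANCR, SNHG33, SNHG12, SNHG7 and SNHG1. None was higher at that level, where 8.18% of all genes were. The median log2 change was -0.13, beside 0.01 over all tested genes, with 24 of 30 members below 0, where 48.1% of all genes were. The calls depended on how the ribosomal RNA share was handled. With the share as a covariate 5 members were called (SNHG1, SNHG12, SNHG15, SNHG32 and ZFAS1), and without the lowest-share library of each group 6 were (DANCR, SNHG1, SNHG7, SNHG15, SNHG32 and ZFAS1). The count over all genes rose as well, from 261 to 586 and 1123.

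Cariporide at 10 mM glucose gave no called member. In CAR against NG 0 of the 30 tested members passed the threshold by edgeR, DESeq2 or limma-voom, as did 0 of all tested genes by edgeR (percent called 0). At an unadjusted p under 0.05 DANCR was lower, where 2.25% of all genes were, and SNHG20 was higher, where 2.28% were. The median log2 change was -0.06, beside 0.00 over all tested genes, and 20 of 30 members were below 0, where 49.5% of all genes were. SNHG20, which holds SCARNA16, was at 2.18, 1.89 and 2.34 CPM in NG and at 3.02, 2.60 and 3.77 CPM in CAR, with no overlap, and at 2.76, 2.70 and 2.40 CPM in LG and 2.41, 2.64 and 3.09 CPM in LGCAR. Its log2 change in CAR against NG was 0.55 (edgeR, SE 0.169, adjusted p = 0.894). Without the lowest-share library of each group, NG 3 and CAR 1 among them, DANCR and ZFAS1 were called lower in this comparison, among 574 genes called in all. The median of the members was -0.16 with the ribosomal RNA share as a covariate and 0.00 without NG 3.

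Cariporide at 5 mM glucose gave no called member either. In LGCAR against LG 0 of the 30 tested members passed by edgeR, DESeq2 or limma-voom, beside 0.00662% of all tested genes by edgeR. At an unadjusted p under 0.05, 6 members were lower, where 5.60% of all genes were: GAS5, SNHG1, SNHG6, SNHG8, SNHG29 and TAF1D. None was higher at that level, where 6.32% were. The median log2 change was -0.14, beside 0.00 over all tested genes, with 24 of 30 below 0, where 50.4% of all genes were. In 12 members the LGCAR libraries lay below all LG libraries, where 10.5% of all tested genes did so. With the ribosomal RNA share as a covariate the median was -0.03.

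At low glucose in the presence of cariporide, 3 members were lower past the threshold. In LGCAR against CAR SNHG32, SNHG12 and SNHG1 were called lower, 3 of 30, beside 0.675% of all tested genes. The log2 changes were -0.29 for SNHG32 (adjusted p = 0.0242), -0.43 for SNHG12 (adjusted p = 0.0264) and -0.29 for SNHG1 (adjusted p = 0.0437), all by edgeR. At an unadjusted p under 0.05, 13 members were lower, where 7.98% of all genes were, and none was higher, where 9.60% were. The median log2 change was -0.20, beside 0.01 over all tested genes, with 28 of 30 below 0, where 48.4% of all genes were. CAR had the lowest ribosomal RNA share of the groups and LGCAR the highest. With the share as a covariate no member was called and the median was -0.02. The count over all tested genes fell as well, from 249 to 18. No member was called without CAR 1 or without any 1 of the LGCAR libraries, 1 (SNHG32) was called without CAR 3, and 3 were without CAR 2. Among low members SNHG9 had the most negative log2 change here, -0.53 (adjusted p = 0.276), with 2.94, 1.82 and 2.11 CPM in CAR and 1.87, 1.63 and 1.28 CPM in LGCAR. SNHG9 was at 1.71, 1.89 and 2.85 CPM in NG and 1.59, 1.83 and 2.26 CPM in LG. SNHG21 had a log2 change of -0.42, with 1.49, 1.78 and 1.49 CPM in CAR and 1.77, 0.842 and 0.904 CPM in LGCAR, overlapping ranges.

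The change with cariporide did not differ between the glucose levels past the threshold for any member. In the interaction, the cariporide change at 5 mM glucose minus that at 10 mM, 0 of 30 were called by edgeR, DESeq2 or limma-voom, and 0 had an unadjusted p under 0.05 in edgeR, beside 0.00662% of all tested genes called. At that unadjusted level 1.59% of all genes were lower and 1.54% higher. The median interaction was -0.10 on the log2 scale, beside 0.00 over all tested genes, and it turned to 0.13 with the ribosomal RNA share as a covariate. SNHG20 had the largest value in size, -0.50 (unadjusted p = 0.0518). The comparisons with NG share the NG libraries, and those with LGCAR share the LGCAR libraries, so their values are not independent of each other.

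The remaining tested members were given by range. SNHG6 lay between 21.3 and 29.4 CPM over the 12 libraries, SNHG17 between 13.8 and 19.9 CPM, and SNHG33 between 7.41 and 10.7 CPM. SNHG18 lay between 6.55 and 9.32 CPM, SNHG10 between 4.55 and 5.996 CPM, SNHG19 between 3.24 and 4.68 CPM and SNHG11 between 2.46 and 3.57 CPM. SNHG25, SNHG26 and SNHG28 reached at most 1.51 CPM in a library.

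The proteins that work with these RNAs were described beside them, by counts of called genes. The 23 tested snoRNP proteins and assembly factors had 10 called lower and 0 higher in LGCAR against NG, with a median log2 change of -0.19. Of all tested genes 4.12% were called lower in that comparison, and the counts of the lists that follow are to be read beside it. GAR1, a core protein of H/ACA particles, went from 41.0 ± 0.287 CPM in NG to 33.0 ± 0.483 CPM in LGCAR (log2 change -0.31, adjusted p = 0.00438). NOP56, a core protein of box C/D particles that itself hosts snoRNAs, went from 124 ± 8.53 to 96.3 ± 2.33 CPM (-0.36, adjusted p = 0.0053). DKC1, the pseudouridine synthase of H/ACA particles, had a called log2 change of -0.25. NOP56 and NOLC1 were also called lower in LG against NG, with -0.26 and -0.18, and NOP56 and NOP58 in LGCAR against CAR, with -0.33 and -0.23.

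Among 52 tested protein-coding host genes, a list that also holds NOP56, 9 were called lower and 0 higher in LGCAR against NG, with a median of -0.17. This list shares genes with the sets that follow, so their counts and medians are not separate results. Ribosomal protein genes such as RPL3, RPL4 and RPS2 are in both this list and the 82 below, and EEF1B2 is also in the translation factor list. HSPA8, the constitutive HSP70 chaperone, fell by 0.36 on the log2 scale both in LGCAR and in LG against NG. CCT6A, a subunit of the TRiC chaperonin, was called with -0.26 in LGCAR against NG and -0.21 in LG against NG. Of 20 tested translation factor genes with known pyrimidine-tract starts, 2 were called lower in LGCAR against NG, EEF1B2 with -0.26 and NPM1 with -0.24, and the median was -0.14. Among 82 ribosomal protein genes with at least 5 CPM, 7 were called lower and the median was -0.20. Those genes, too, stood above their means in NG 3, CAR 1 and LG 3.

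Of 25 tested factors of nonsense-mediated decay, 2 were called lower in LGCAR against NG, PNRC2 with -0.30 and RNPS1 with -0.19, and the median was 0.00. UPF3B was the factor called in LGCAR against CAR, with -0.30.

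Most of the snoRNAs themselves could hardly be read from these libraries. RefSeq places 72 of them inside 29 of the tested members, 40 of box C/D, 29 of box H/ACA and the rest scaRNAs. All 72 had a row in the tables, but 22 had any count, and the sum over the 12 libraries was 863. Of these counts 711 fell on SNORA73A and SNORA73B in SNHG3, with at most 44 on a snoRNA in a library. No other snoRNA inside a tested member had more than 6 counts in a library. SCARNA17, inside SNHG22, had 25 to 49 counts per library although SNHG22 itself had 0. These 3 passed the filter and were tested with the other genes, and none was called in a comparison by edgeR, although SNORA73B was lower at an unadjusted p under 0.05 in LGCAR against each of the other 3 groups. In LGCAR against NG SNORA73B had a log2 change of -0.55 (edgeR, SE 0.242, adjusted p = 0.143), SNORA73A one of -0.28 (SE 0.317, adjusted p = 0.591) and SCARNA17 one of -0.11 (SE 0.208, adjusted p = 0.761). SNORA73B had 33, 30 and 43 counts in NG 1 to 3 and 27, 14 and 22 in LGCAR 1 to 3, not scaled to library size. For the other snoRNAs the counts were too few to show a change, and how library preparation kept short RNAs was not tested.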

How the data were processed

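RNA of 12 MDA-MB-231 libraries was sequenced from kits that keep the strand, per the labels. The authors deposited raw gene counts, 1 table per library. The submitters' processing notes name GRCh38, STAR, Salmon, fastp and GATK. Versions, which tool made the counts, and strand use in counting: not given in the sources used here.

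CPM and log2 fold changes were computed with edgeR 4.0.16 (TMM) in R 4.3.3. The 15104 genes passing filterByExpr over the 4 groups were tested with the robust quasi-likelihood test on all 12 libraries, adjusted by Benjamini-Hochberg. DESeq2 1.42.0 and limma-voom (limma 3.58.1) were alternatives. Replicate libraries differed by more than counting noise. Intervals cover 95%; floors stand for 3 counts and cover counting error only.

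Members and lists were chosen with earlier results of these data known. Values per library were given for SNHG1, GAS5, ZFAS1, DANCR, EPB41L4A-AS1, TAF1D, called members and the 3 other members with the largest change; up to 3 called genes with the smallest p were named per list. SNHG16 was added after its values were seen. The related lists held 120 entries.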

Additional observations from a re-analysis of the deposited data

How the results depend on the processing

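The count of members called rested on few libraries per group. With 1 library left out the count was 1 to 13 in LGCAR against NG, 0 to 2 in LG against NG and 0 to 3 in LGCAR against CAR. With NG 1 and LGCAR 3 both left out it was 2, 0 and 0. Other ways of fitting moved it as well. A fit of the groups compared alone gave 16 in LGCAR against NG and 0 in LG against NG. No filter on low counts gave 5 in LGCAR against CAR. The ribosomal RNA share as a covariate gave 5 in LG against NG and 0 in LGCAR against CAR. Over all tested genes these fits called 3497, 115, 391, 586 and 18, in that order. Without the lowest-share library of each group, chosen after seeing the data, the count of members was 2 in CAR against NG and 6 in LG against NG. The covariate moved the median of the members to -0.027 in the comparison of LGCAR with LG, to -0.023 in that with CAR and to 0.13 in the interaction, away from 0 to -0.16 in CAR and -0.17 in LG against NG, and SNHG9 turned to 0.11 in LGCAR against CAR. The cause was not tested. Scaling by RLE or by library totals moved no count of members.

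With the replicate number as a block, 5 members were called in LGCAR against NG, 0 in LG against NG and 1 in LGCAR against CAR. Over all tested genes the block gave 682, 147 and 135 in these comparisons, beside 1322, 261 and 249 in the main fit. The numbers were not shown to pair the libraries: the deviations of 18 same-numbered pairs correlated at -0.111 to 0.135, with 2 over 0.1.

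Over all tested genes, the counts called with 1 library left out were 0 to 2 in CAR against NG, 82 to 365 in LG against NG, 134 to 1578 in LGCAR against NG, 1 to 3 for LGCAR with LG, 49 to 190 for LGCAR with CAR, and 1 to 3 for the interaction. Under the other settings they were 0 to 574, 92 to 1123, 257 to 3497, 1 to 46, 18 to 597 and 0 to 17. Genes of the related lists were not rechecked under other settings.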
